A study of Mus musculus with 12 samples.

Results

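The genes described here mark the erythroid and megakaryocyte branches of blood formation, and the data are DNase I hypersensitive sites (DHSs), short stretches of open chromatin, called in 12 mouse libraries. The set holds 9 genes, chosen for their lineage: Klf1, Epor, Hba-a1, Car1, Itga2b, Gp9, Gp1ba, Nfe2 and Vwf. Every DHS whose midpoint lay within 50 kb of either end of one of these gene bodies was taken, which gave 208 of the 170207 DHSs of the whole series. A DHS within 1 kb of the gene's own start was called its promoter DHS (11 sites), one within 1 kb of the start of another protein-coding gene was kept apart (48 sites), and the remaining 149 were called distal.

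All cells came from C57BL/6J mice with no altered allele named in the labels. LSK cells (Lin-, SCA1+, KIT+ stem and progenitor cells) were sorted fresh from marrow that had been depleted of lineage-positive cells, and gave 3 libraries. DN1, DN2a and DN2b cells, successive early T cell precursors, were sorted from LSK cells grown on a surface coated with the Notch ligand Delta1ext-IgG, and gave 2 libraries each. DN1 cells were grown with SCF, FLT3 ligand, IL-6 and IL-11 but without IL-7, and both DN2 populations came from cultures with IL-7, so stage and IL-7 cannot be told apart between DN1 and DN2a. The IgG group (3 libraries) was LSK cells grown on human IgG1 with no Notch ligand, and it differs from LSK in culture as well as in the cells it holds. Neither IL-7 nor a sort after culture is described for IgG in the sources used here. In comparisons of the Delta1 cultures (DN1, DN2a and DN2b together) with IgG, ligand, the sort and, for DN2a and DN2b, IL-7 therefore cannot be told apart. DN libraries may share an LSK isolate with each other, and the labels do not say which. A lower value in a pooled population can come from fewer cells with the site open or from a less open site in each cell, and the peak lists cannot tell these apart.

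Erythroid and megakaryocyte cells arise from a shared progenitor that itself derives from LSK cells. GATA factors and their partners open the genes of both branches, KLF1 takes the erythroid one, and ETS and RUNX factors act with GATA factors on megakaryocyte genes. T cell precursors leave this choice behind. Klf1 encodes the erythroid zinc finger factor, Epor the erythropoietin receptor, Hba-a1 an adult alpha-globin chain and Car1 the carbonic anhydrase of red cells. Itga2b encodes CD41, the alpha chain of the platelet fibrinogen receptor, and Gp9 and Gp1ba encode parts of the platelet receptor for von Willebrand factor, the product of Vwf. Nfe2 encodes a subunit of NF-E2, a factor needed for platelet release.

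The sequences shown are the promoter peaks of 3 of the 4 genes that were open in LSK and absent from IgG (Gp9 is the other), and distal peaks from the main distal patterns described below. They were chosen after their values were seen, and they include all 5 peaks with a GATA match among the 28 named sites that passed the test. Each is the highest-ranked 150 bp peak of its site, read 5′ to 3′ on the plus strand of mm10. Capitals mark the letters searched for, on both strands, and no match overlaps another in the peaks printed. They were AGATAA and its variant form TGATAA for the GATA factors. For the KLF factors the letters were CACACCC, and for NF-E2 and the related AP-1 they were TGAGTCA. For the ETS factors the letters were AGGAAG, and for the RUNX factors they were TGTGGT.
Gp1ba promoter, chr11:70638957-70639106: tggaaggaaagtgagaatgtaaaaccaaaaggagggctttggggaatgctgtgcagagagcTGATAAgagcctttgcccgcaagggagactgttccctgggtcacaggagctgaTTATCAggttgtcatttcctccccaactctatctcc
Itga2b promoter, chr11:102470097-102470246: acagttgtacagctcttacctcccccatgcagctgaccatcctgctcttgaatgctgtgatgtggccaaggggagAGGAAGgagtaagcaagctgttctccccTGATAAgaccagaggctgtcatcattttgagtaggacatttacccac
Epor promoter, chr9:21962537-21962686: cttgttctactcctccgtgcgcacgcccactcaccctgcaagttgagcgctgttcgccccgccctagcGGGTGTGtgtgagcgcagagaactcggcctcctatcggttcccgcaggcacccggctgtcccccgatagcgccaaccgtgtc
Hba-a1 upstream at 18.2 kb, chr11:32265257-32265406: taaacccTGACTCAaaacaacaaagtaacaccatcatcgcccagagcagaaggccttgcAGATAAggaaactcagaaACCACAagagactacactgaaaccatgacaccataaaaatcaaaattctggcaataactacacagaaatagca
Hba-a1 upstream at 12.2 kb, chr11:32271277-32271426: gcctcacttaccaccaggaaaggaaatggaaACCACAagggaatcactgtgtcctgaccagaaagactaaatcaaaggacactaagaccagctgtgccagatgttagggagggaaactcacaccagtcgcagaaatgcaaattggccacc
Gp9 upstream, chr6:87775957-87776106: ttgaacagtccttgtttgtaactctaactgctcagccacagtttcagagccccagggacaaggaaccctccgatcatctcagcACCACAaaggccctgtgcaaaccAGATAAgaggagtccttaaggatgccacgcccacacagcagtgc
Gp1ba upstream, chr11:70622477-70622626: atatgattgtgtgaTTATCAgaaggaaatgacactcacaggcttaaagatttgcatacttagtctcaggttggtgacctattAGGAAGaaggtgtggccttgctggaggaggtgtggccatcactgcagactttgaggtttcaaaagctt
Gp1ba downstream, chr11:70680037-70680186: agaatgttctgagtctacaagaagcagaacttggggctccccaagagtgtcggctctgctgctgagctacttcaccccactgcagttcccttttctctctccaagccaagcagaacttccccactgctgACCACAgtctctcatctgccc
Nfe2 upstream, chr15:103269017-103269166: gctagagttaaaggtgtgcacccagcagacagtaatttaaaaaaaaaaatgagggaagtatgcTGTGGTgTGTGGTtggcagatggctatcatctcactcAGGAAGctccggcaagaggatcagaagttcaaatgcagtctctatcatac
Vwf upstream, chr6:125526217-125526366: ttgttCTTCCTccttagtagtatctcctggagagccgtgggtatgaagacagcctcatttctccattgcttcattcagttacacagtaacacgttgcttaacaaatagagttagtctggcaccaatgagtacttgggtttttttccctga
The Gp1ba and Itga2b promoter peaks and the upstream peaks of Hba-a1 (18.2 kb), Gp9 and Gp1ba hold a GATA match, and the other 5 do not. Over 1 peak from each of the 170207 DHSs, 13.3% held a GATA match, 4.35% a KLF match, 5.96% an NF-E2 match, 33.6% an ETS match and 23.1% a RUNX match. Of the 32 sites named in this text by rule, 8 held a GATA match, 4 a KLF match, 2 an NF-E2 match, 10 an ETS match and 13 a RUNX match. A match describes the letters only.

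Each value below is a percentile. The deposited lists give every peak a score, and the percentile is the rank of that score among all peaks of the same library, with 0 where the library had no peak. List length differed between libraries, from 53869 to 62377 peaks in LSK, 57729 to 111582 in the DN libraries and 32952 to 37511 in IgG. A site of middling rank can therefore be missing from a short list only because that list stops earlier. A peak at the same place counted from the top also has a lower percentile in a shorter list. Results were also recomputed after every list was reduced to its 32952 highest-scoring peaks, and these are called values at equal list length. Keeping only the upper 50% of each list is named beside the calls that it ended and equal list length kept. The read depth behind the lists is unknown.

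Promoter DHSs differed in pattern between the genes. Itga2b, Gp9, Gp1ba and Epor were open in all 3 LSK libraries and in none of the IgG libraries, Nfe2 was open in all 12 libraries, and the promoters of Vwf and Hba-a1 had no peak in any library. Of the 9 promoters, 5 had a peak in at least 2 libraries and were tested, and 4 of the 5 differed among the 5 groups by limma's F test at a Benjamini-Hochberg adjusted p under 0.05. Over all 12732 promoters tested, 48.9% did. In IgG against LSK, 4 of the 5 were lower (all promoters: 41.3%). In DN2b against LSK, 3 of the 5 were lower (all promoters: 2.39%). In DN1 against LSK, limma called 0 of the 5 higher (all promoters: 2.36%), with 0 higher and 1 lower at an unadjusted p under 0.05. Progenitor, myeloid and mast cell markers moved with the IgG group as well. Of 8 LSK marker genes 5 were tested, 2 passed the F test, and 5 were lower in IgG than in LSK by limma. These 5 included Flt3, lower by 67.9 points (adjusted p = 0.000454), and Cd34, lower by 62.1 (adjusted p = 0.000493). Itgam, which encodes the myeloid integrin CD11b, ranked at 41.2, 42.2 and 0 in LSK and at 84.6, 78.1 and 70.5 in IgG (higher, limma adjusted p = 0.00935). Itgam stood at 65.5 and 69.5 in DN1, 56.5 and 48.6 in DN2a, and 17.8 and 52.2 in DN2b. Its difference between the Delta1 groups and IgG was not called (-26.0 points, adjusted p = 0.0609). Cpa3, the mast cell carboxypeptidase, was open in all 9 LSK and DN libraries and in none of IgG (lower than LSK, adjusted p = 0.00689). Their part in the results against IgG was not tested.

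**Figure D1:**
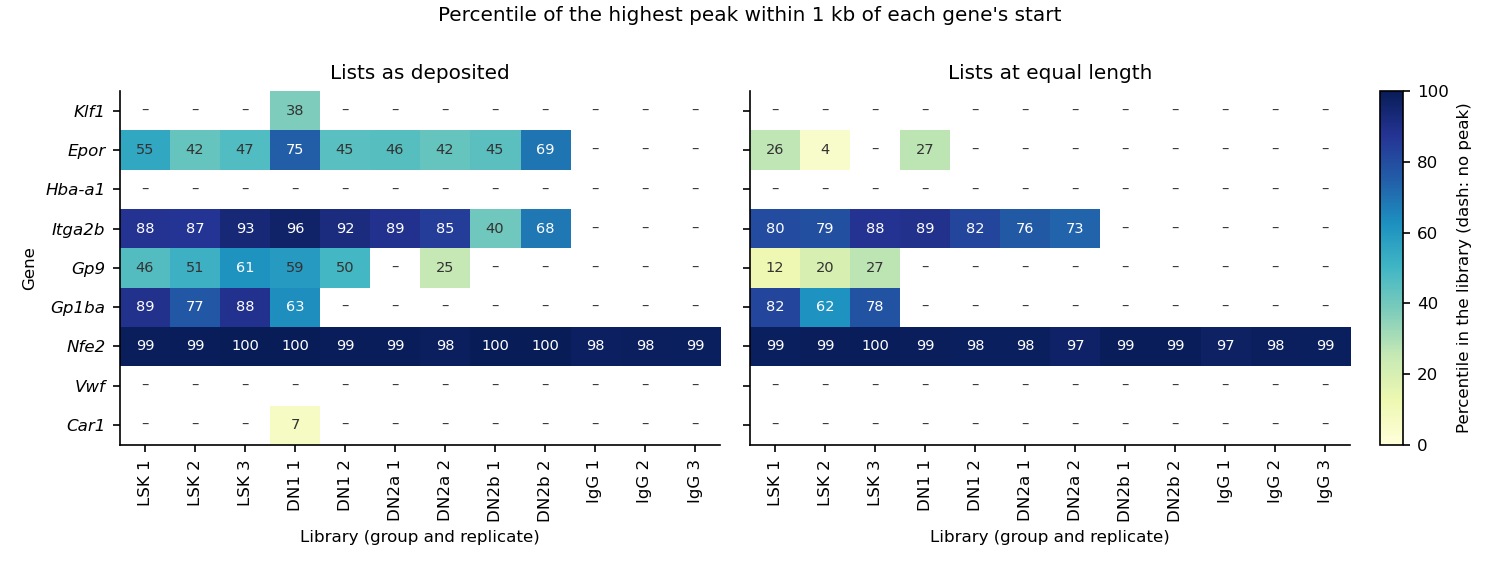
Percentile of the highest peak within 1 kb of each gene's start (rows) in each library (columns), for the lists as deposited on the left and at equal length on the right. A dash means no peak. Nfe2 was open throughout, Itga2b, Gp9, Gp1ba and Epor were open in LSK and absent from IgG, and Hba-a1 and Vwf had no promoter peak.

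The Itga2b promoter DHS (chr11:102469977-102470326, just upstream of the start) ranked at 87.9, 87.3 and 93.5 in the LSK libraries. It stood at 96.2 and 91.5 in DN1, 88.5 and 84.7 in DN2a, 40.5 and 68.5 in DN2b, and had no peak in any of the IgG libraries. The DN2b libraries were below every LSK, DN1 and DN2a library, and LSK overlapped both DN1 and DN2a. At the gene's promoter, DN2b was lower than LSK by 35.1 percentile points (SE 9.05, limma adjusted p = 0.0399) and IgG was lower by 89.6 (SE 8.09, adjusted p = 3.54e-05). At equal list length both DN2b libraries also lost the peak, and the F test still passed (adjusted p = 6.02e-06). CD41, the product of this gene, is carried by early progenitors as well as by platelets.

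The Gp1ba promoter DHS (chr11:70638957-70639126, 80 bp upstream of the start) ranked at 88.9, 76.9 and 88.3 in LSK. It had a peak at 63.2 in DN1 replicate 1, and no peak in DN1 replicate 2 or in any DN2a, DN2b or IgG library. DN2b was lower than LSK by 84.7 points (SE 14.0, limma adjusted p = 0.00326), and IgG by the same amount (adjusted p = 0.000588). DN1 replicate 1 is the second longest list, with 96436 peaks, and at equal list length its peak was gone and the promoter was open in LSK only, at 81.8, 61.7 and 77.9 (F test adjusted p = 1.55e-05).

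The Gp9 promoter held a pair of DHSs. The one at the start (chr6:87777957-87778146, 20 bp upstream) ranked at 46.2, 51.4 and 61.3 in LSK and at 59.4 in DN1 replicate 1, and was absent from all other libraries. This site passed the F test (adjusted p = 0.0249), and it no longer passed when any 1 of the 3 LSK or the 3 IgG libraries was left out (adjusted p from 0.0517 to 0.0790). The second, 760 bp downstream, was open in LSK replicate 1, in both DN1 libraries and in DN2a replicate 2 at 21.2, 35.7, 49.5 and 25.3. Taking the higher of the pair, DN2b was lower than LSK by 53.0 points (SE 8.40, limma adjusted p = 0.00249) and IgG likewise (SE 7.51, adjusted p = 0.000458). At equal list length only the 3 LSK libraries kept a Gp9 promoter peak, at 12.1, 19.5 and 26.8 (F test adjusted p = 0.0176). With the upper 50% of each list the Gp9 promoter did not pass (adjusted p = 0.599).

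The Epor promoter DHS lay in the gene's first kilobase, 874 bp downstream of the start and in an intron (chr9:21962537-21962726). It ranked at 54.9, 42.2 and 46.5 in LSK, 75.0 and 45.2 in DN1, 45.5 and 42.3 in DN2a, and 44.9 and 69.3 in DN2b, with no peak in IgG. LSK and the DN libraries overlapped, and only IgG stood apart, 47.9 points below LSK (SE 9.45, limma adjusted p = 0.00271). With lists of equal length the peak was left in LSK replicates 1 and 2 and DN1 replicate 1 only, at 26.3, 4.35 and 26.9, and the F test no longer passed (adjusted p = 0.474). With a promoter window of 500 bp in place of 1 kb, Epor was open in 1 library.

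The Nfe2 promoter DHS (chr15:103258377-103258606) was among the highest-ranked peaks of every library, from 97.7 to 99.8. The LSK libraries averaged 99.5 ± 0.287 and the IgG libraries 98.2 ± 0.527 (SD, n = 3 each), with DN1 at 99.5 ± 0.255, DN2a at 98.7 ± 0.792 and DN2b at 99.7 ± 0.108 (n = 2 each). The differences did not pass the F test across promoters (limma adjusted p = 0.150).

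The other erythroid promoters had few or no peaks. Klf1 and Car1 each had promoter peaks in DN1 replicate 1 alone, at 37.8 for the highest of 3 Klf1 DHSs and 6.79 for Car1, and neither had one at equal list length. With a promoter window of 2.5 kb in place of 1 kb, Klf1 was open in all 12 libraries. Hba-a1 had none, but the stretch around its start is hard to score. Of the 31-base words within 1 kb of the Hba-a1 start, 74.5% occur again on chromosome 11, where the near-identical Hba-a2 lies. For the other 8 genes 0% to 6.39% occur again on the gene's own chromosome, and other chromosomes were not searched. File names hint that uniquely placed reads were used, but how reads that fit several places were treated is not given in the sources used here, so an absent peak at Hba-a1 is not evidence of shut chromatin. Vwf, with 6.39% of its words repeated on its own chromosome, had no promoter peak in any library.

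Distal DHSs near these genes fell into a few patterns, and in several the order of groups differed from that of the promoter nearby. Of the 163 member sites with a peak in at least 2 libraries, 61 passed the F test (37.4%), and over all 114527 sites tested 46.1% did. By class, 5 of 6 promoter sites, 13 of 44 at the promoters of other genes and 43 of 113 distal sites passed. The shares over all sites of each class are not given here, so these counts have no background. The other 45 of the 208 sites were found in 1 library and were not tested. Of the 61 sites, 32 also passed at equal list length, where 11 of the 61 had too few peaks to be tested. In all, 37 of the 111 member sites tested at equal list length passed, and 49.07% of all sites did.

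**Figure D2:**
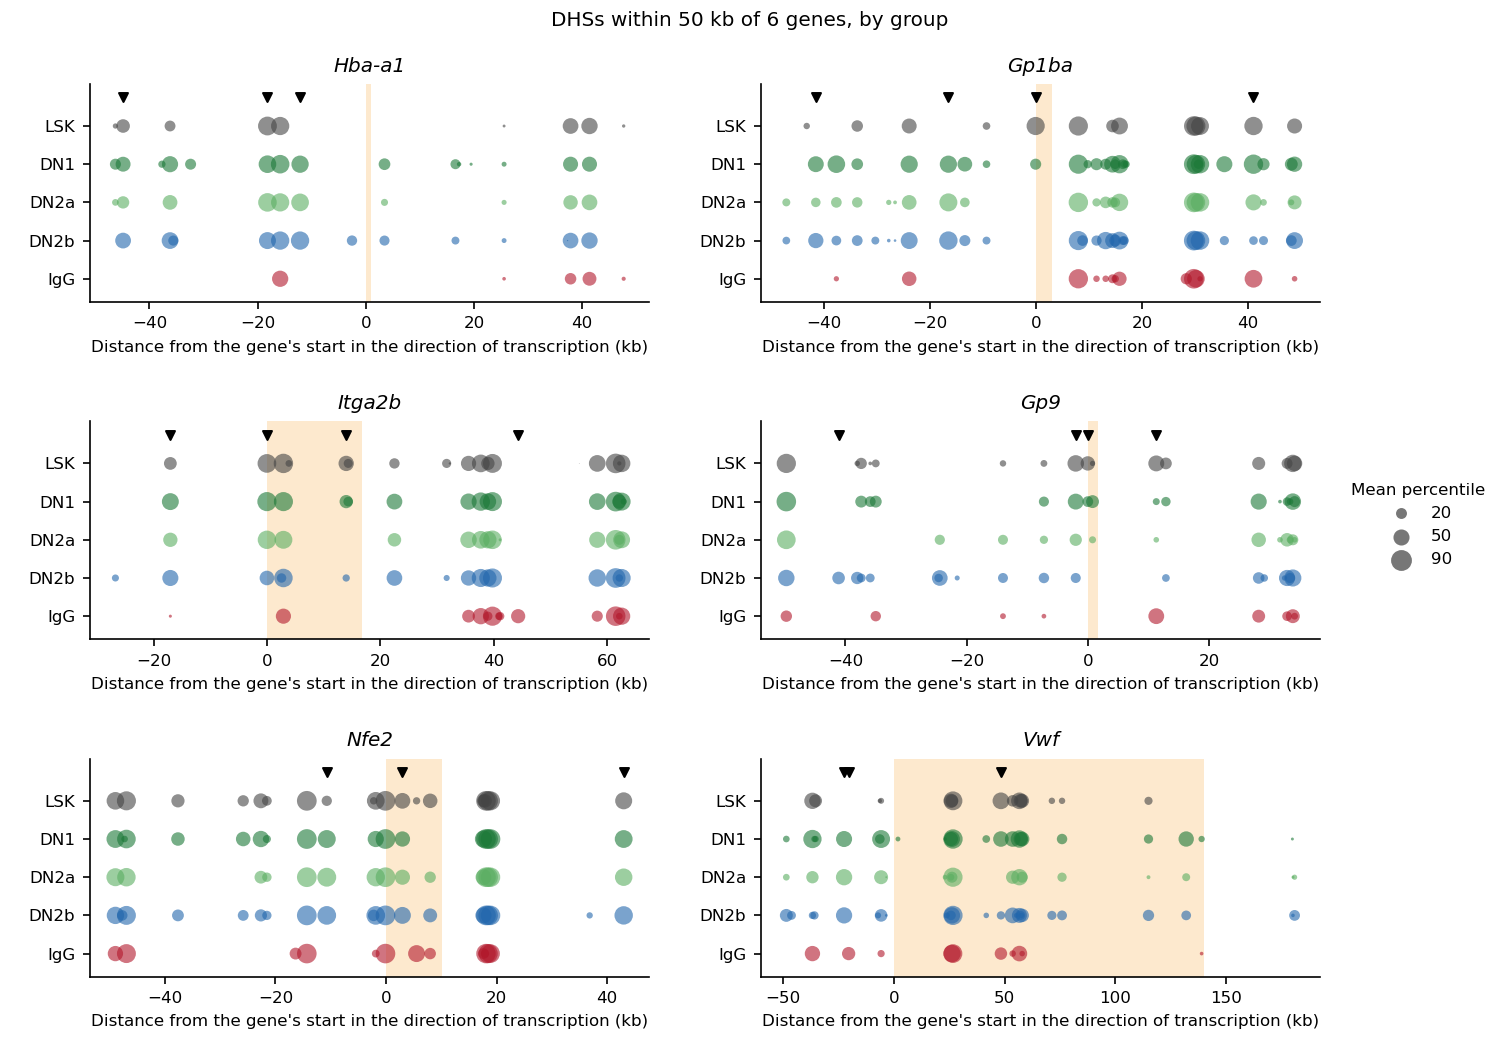
DHSs within 50 kb of 6 of the genes, placed by distance from the start in the direction of transcription (kb), with 1 row for each group. Circle area is proportional to the group's mean percentile, the shaded band is the gene body, and triangles mark the sites named in the text that passed the F test. The Hba-a1 window holds sites that are open in LSK and the DN groups and empty in IgG, at 18.2 kb upstream, and a site open in the DN groups only, at 12.2 kb upstream.

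Some distal sites were open in LSK and DN1 and lower or without a peak in the DN2 libraries. The site 2.01 kb upstream of Gp9 (chr6:87775937-87776186) ranked at 70.1, 71.1 and 68.3 in LSK, 84.5 and 45.2 in DN1, 39.3 and 37.5 in DN2a, and 17.8 and 33.8 in DN2b, with no peak in IgG. Every DN2a and DN2b library was below every LSK library, and DN2b was lower than LSK by 44.0 points (SE 10.4, limma adjusted p = 0.0139). In lists of equal length it was open in LSK at 51.1, 52.2 and 39.9, in DN1 replicate 1 at 54.7, and nowhere else (F test adjusted p = 0.0197). The site 13.95 kb into Itga2b, in an exon (chr11:102456037-102456306), ranked at 58.6, 51.4 and 70.5 in LSK and 47.2 and 42.9 in DN1. It was absent from DN2a and IgG and had a peak at 27.2 in DN2b replicate 2 only. DN2a was lower than DN1 by 45.1 points (SE 10.01, adjusted p = 0.0215), and at equal list length the site was open in the 3 LSK libraries alone. With the upper 50% of each list neither the Gp9 nor this Itga2b site passed the F test (adjusted p = 0.0827 and 0.160). Inside Vwf, an intronic site 48.3 kb from the start (chr6:125594917-125595186) stood at 63.5, 66.4 and 84.7 in LSK and 62.0 and 61.8 in DN1, and was absent from both DN2a libraries. DN2b replicate 2 had it at 35.4 and the IgG libraries at 26.6, 52.8 and 40.04. This site thus had a peak in every library of the culture without ligand. Each had a lower percentile than every LSK library, in shorter lists, so this order does not compare places counted from the top. DN2a was lower than DN1 by 61.9 points (SE 12.8, adjusted p = 0.0152). DN2a was lower than DN1 by 9.73 points at equal list length, where DN1 replicate 2 alone of the DN libraries had the peak. With the upper 50% of each list it was lower by 23.7. The F test over all 5 groups passed in both settings (adjusted p = 0.0138 and 0.0168), and it does not test DN2a against DN1 alone.

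A pair of sites was high in LSK and IgG and low in DN2b. One lay 41.05 kb downstream of the Gp1ba start in an intron of Camta2 (chr11:70680037-70680306). It ranked at 84.8, 89.8 and 83.5 in LSK, 96.0 and 95.9 in DN1, 72.7 and 59.5 in DN2a, and 79.2, 79.1 and 83.2 in IgG. DN2b replicate 1 had no peak there and replicate 2 had one at 38.4, below every other library with a peak. DN2b was lower than DN2a by 46.9 points (SE 10.1, limma adjusted p = 0.0303) and lower than LSK by 66.8 (SE 9.19, adjusted p = 0.000670). The other lay 11.3 kb downstream of the Gp9 start, in a UTR of the neighbouring gene Rab43 (chr6:87789237-87789446), at 73.4, 57.2 and 64.3 in LSK and 62.8, 62.3 and 66.9 in IgG. DN1 replicate 1 and DN2a replicate 1 had it at 24.9 and 16.1, and the other DN libraries had no peak. DN1 was lower than LSK by 52.5 points (SE 8.98, adjusted p = 0.00331). This site was open in LSK and IgG and in no DN library at equal list length.

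At Hba-a1 open sites lay upstream of a promoter without a peak. The major enhancers of the alpha-globin genes are known to lie in the introns of Nprl3, the gene upstream. A site in an intron of Nprl3, 18.2 kb upstream of Hba-a1 (chr11:32265237-32265406), ranked at 92.6, 88.9 and 90.5 in LSK. It stood at 85.4 and 73.7 in DN1, 92.4 and 84.1 in DN2a, and 59.0 and 88.5 in DN2b, and was absent from all 3 IgG libraries. IgG was 90.7 points below LSK (SE 6.88, limma adjusted p = 1.87e-05), and at equal list length the 9 other libraries kept the peak, at 23.6 to 87.8. Its peak, printed above, holds 1 GATA, 1 NF-E2 and 1 RUNX match. A further intronic site of Nprl3, 44.9 kb upstream (chr11:32238537-32238726), was also open in all but the IgG libraries, between 25.5 and 73.0. Its call did not hold at equal list length (F test adjusted p = 0.553).

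Another group of sites was open in LSK and all DN libraries but not, or hardly, in IgG. The site 43.0 kb downstream of the Nfe2 start in an intron of Cbx5 (chr15:103215337-103215506) ranked at 65.0, 79.2 and 77.9 in LSK, between 72.7 and 86.9 in the DN libraries, and had no peak in IgG. IgG was lower than LSK by 74.0 points (SE 4.70, limma adjusted p = 7.99e-06). The mean over the Delta1 groups was above IgG by 82.0 points, and by 58.6 at equal list length, where the F test also passed (adjusted p = 0.00154). A site in a UTR of Nfe2 itself, 2.97 kb from the start (chr15:103255317-103255546), was open in the same 9 libraries at 42.3 to 77.4. The site 17.1 kb upstream of Itga2b in an intron of Gpatch8 (chr11:102487097-102487266) was open in those 9 at 35.1 to 75.0 and in IgG replicate 3 at 7.20. Neither of the last pair passed at equal list length (adjusted p = 0.140 and 0.207).

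Some sites were open in the DN libraries sorted from the Delta1 cultures and in no LSK or IgG library. A site between genes, 12.2 kb upstream of Hba-a1 (chr11:32271257-32271446), ranked at 80.4 and 72.7 in DN1, 82.6 and 77.7 in DN2a, and 81.0 and 90.4 in DN2b. None of the 3 LSK or 3 IgG libraries had a peak there. The mean over the Delta1 groups was higher than IgG by 80.8 points (SE 4.34, limma adjusted p = 1.26e-06), and DN1 was higher than LSK by 76.5 (SE 5.60, adjusted p = 2.73e-05). With lists of equal length the 6 Delta1 libraries kept it at 42.5 to 67.3 and the other 6 had none. The site 16.6 kb upstream of Gp1ba (chr11:70622457-70622666) showed the same order, at 87.1 and 64.6 in DN1, 87.6 and 78.5 in DN2a, and 85.3 and 87.8 in DN2b. It too was absent from LSK and IgG with either list length, and DN1 was higher than LSK by 75.9 points (SE 7.12, adjusted p = 9.86e-05). It lies 3346 bp from the start of Chrne, a muscle acetylcholine receptor gene, so its nearest gene is not the platelet gene, and which gene it acts on was not tested. The site 22.5 kb upstream of Vwf (chr6:125524137-125524346) ranked between 50.8 and 84.2 in the 6 Delta1 libraries and was absent elsewhere, also at equal list length (8.19 to 46.4, F test adjusted p = 0.0249), but it did not pass with the upper 50% of each list (adjusted p = 0.156).

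The site 10.7 kb upstream of Nfe2 (chr15:103269017-103269206, 3602 bp from the start of Copz1) was lower in LSK than in the DN libraries. It had no peak in LSK replicate 1 and stood at 34.5 and 46.5 in replicates 2 and 3, against 83.6 and 81.3 in DN1, 90.3 and 92.3 in DN2a, and 86.4 and 92.0 in DN2b, with none in IgG. No LSK library reached a DN library, and DN1 was higher than LSK by 55.4 points (SE 11.2, limma adjusted p = 0.00831). The 6 DN libraries alone had it at equal list length. Its peak, printed above, holds 2 RUNX matches and 1 ETS match. Near Klf1, a site 12.2 kb downstream of the start (chr8:84914057-84914246), in an exon where Dnase2a and Mast1 overlap, was open in the 6 Delta1 libraries at 62.5 to 88.0. LSK replicates 1 and 3 had it at 33.1 and 52.7, and LSK replicate 2 and the IgG libraries had none. DN1 was higher than LSK by 47.0 points (SE 13.6, adjusted p = 0.0459). The F test also passed at equal list length (adjusted p = 0.0165), with the mean over the Delta1 groups 37.5 points above IgG.

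Within Klf1, an exonic site 1.55 kb from the start (chr8:84903377-84903586) was open in LSK replicate 3 at 54.6, in the DN libraries at 63.6 to 86.3 and in IgG at 42.3, 45.9 and 32.2. DN1 was higher than LSK by 59.7 points (SE 15.1, limma adjusted p = 0.0249), and by 39.1 at equal list length. The F test over all 5 groups passed there (adjusted p = 0.0438), and it does not test this difference alone. With peaks merged within 150 bp of each other into longer sites the difference was 4.84 points and the F test did not pass (adjusted p = 0.262). The F test at this site (adjusted p = 0.0244) no longer passed without LSK replicate 1, LSK replicate 2, either DN1 library or DN2b replicate 2 (adjusted p from 0.0508 to 0.0633).

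The remaining Delta1 sites did not hold at equal list length. Near Epor, sites 47.8 kb upstream in an intron of Prkcsh and 9.67 kb downstream were open in 6 and 5 DN libraries at 30.8 to 64.4 and 25.5 to 41.4. Near Gp1ba, a site 41.6 kb upstream in an intron of Mink1 was open in the 6 DN libraries at 18.4 to 82.0. Sites 47.5 kb upstream of Klf1, 14.7 kb upstream of Epor and 41.1 kb upstream of Gp9 were open in both DN2b libraries only, at 28.2 to 53.5. At equal list length the 5 sites near Epor, Klf1 and Gp9 had no peak in any library and the Mink1 site was left in DN1 replicate 1 and DN2b replicate 1 (F test adjusted p = 0.329). DN2b replicate 2 is the longest list. Car1 had 3 DHSs in its window, fewer than any other gene, and the single tested one, 16.6 kb upstream, stood at 19.6 in DN1 replicate 2 and at 13.8 and 14.2 in DN2a (limma F test adjusted p = 0.0767).

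Sites seen in the IgG culture alone were few. The site 44.3 kb downstream of the Itga2b start (chr11:102425757-102425926, 4473 bp from the start of Grn, the progranulin gene) ranked at 54.0, 38.2 and 62.8 in the IgG libraries and had no peak in the other 9. The site 20.5 kb upstream of Vwf (chr6:125526197-125526406) ranked at 44.5, 58.8 and 32.2 in IgG and was likewise absent from the other 9. IgG was higher than LSK by 51.7 points at the former (SE 6.09, limma adjusted p = 0.000262) and by 45.1 at the latter (SE 6.12, adjusted p = 0.000622). These gains appeared in the shortest lists, and both passed at equal list length. With the upper 50% of each list the Itga2b site did not pass (F test adjusted p = 0.319) and the Vwf site had too few peaks to be tested. The Vwf pair of upstream sites, 22.5 kb and 20.5 kb from the start, thus lay close together with opposite occupancy, Delta1 libraries at the one and IgG libraries at the other.

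**Figure D3:**
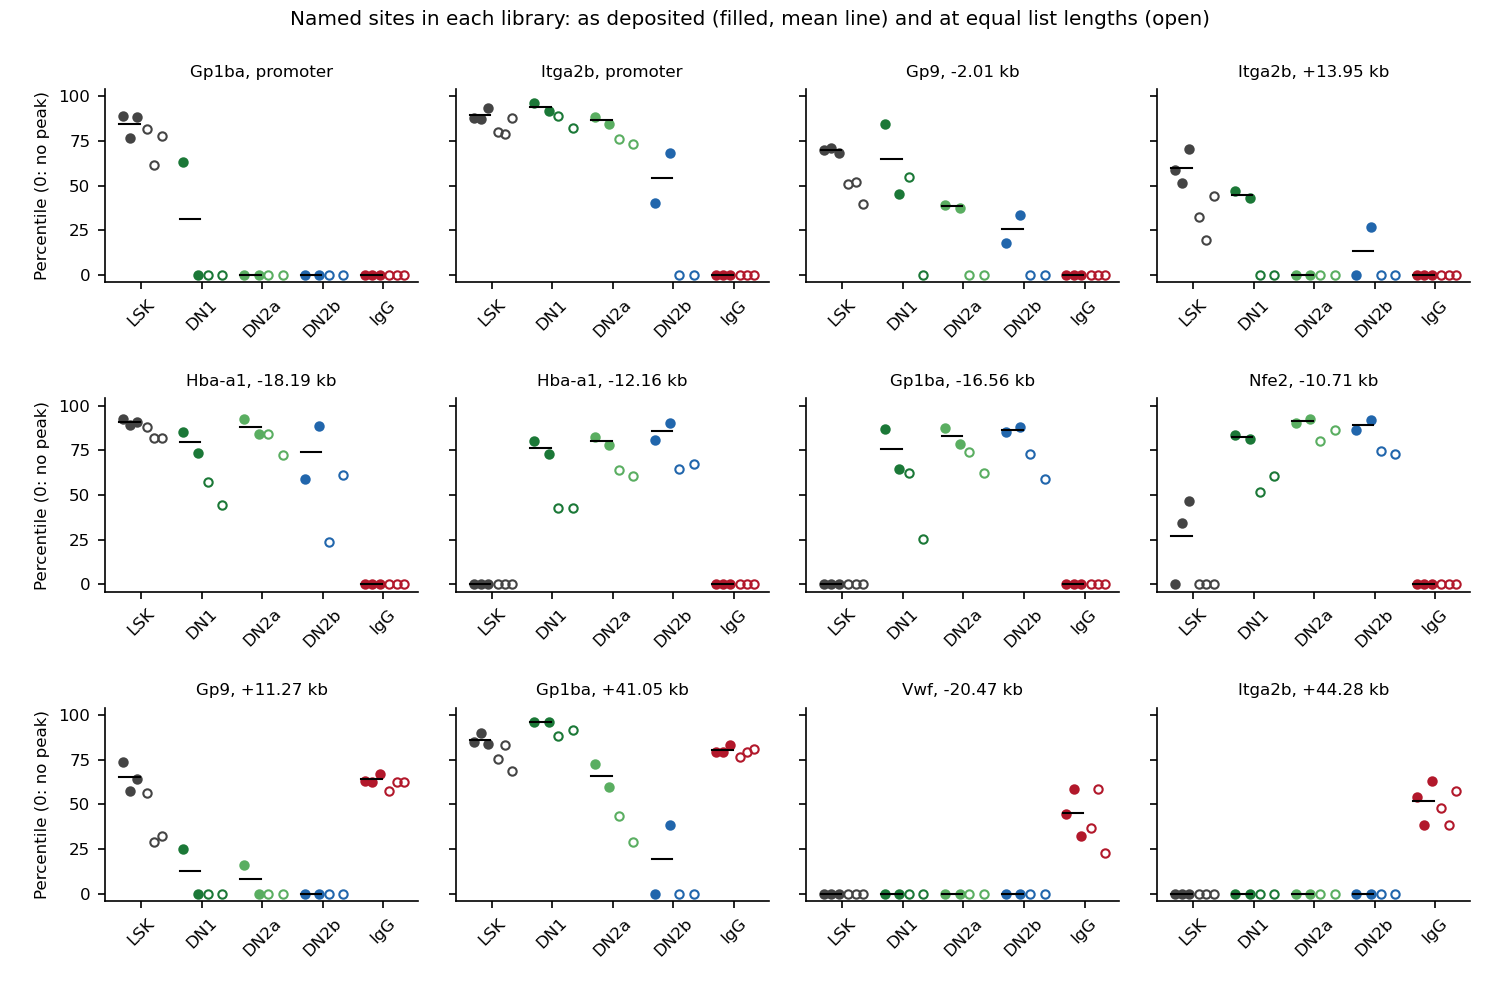
Percentile at 12 named sites in each library, grouped by population. Filled points are the lists as deposited with a line at their mean, open points the lists at equal length, and 0 is no peak. The top row shows sites open in LSK and lower or absent in DN2b, the middle row sites absent from IgG with or without LSK, and the bottom row sites open in IgG.

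Across the whole windows the direction of change moved with list length. Delta1 cultures against IgG had 59 of 163 member sites higher and 12 lower (all sites: 38.4% higher, 7.77% lower). IgG against LSK had 3 higher and 29 lower (all sites: 4.86% and 17.0%). DN2b against LSK had 19 higher and 11 lower (all sites: 16.5% and 4.76%), and DN1 against LSK had 17 higher and 2 lower (all sites: 13.8% and 2.29%). DN2a against DN1 had 0 higher and 5 lower by limma (all sites: 1.76% and 7.54%; 0 and 21 at an unadjusted p under 0.05), and DN2b against DN2a 6 higher and 1 lower (all sites: 4.27% and 0.372%). In lists of equal length 111 member sites were tested, and the splits into higher and lower became 15 and 21 for Delta1 against IgG and 7 and 14 for IgG against LSK. They became 6 and 15 for DN2b against LSK, 8 and 10 for DN1 against LSK, 3 and 5 for DN2a against DN1, and 0 and 2 for DN2b against DN2a by limma. Over all sites at equal list length, the shares were 25.3% higher and 21.9% lower for Delta1 against IgG, 14.1% and 11.4% for DN2b against LSK, 8.72% and 6.89% for DN1 against LSK, and 3.84% and 2.06% for DN2b against DN2a. In these 4 contrasts the sites near the 9 genes had more lower than higher calls at equal list length and the reverse with the deposited lists. The shares over all sites at equal list length were 12.95% higher and 15.55% lower for IgG against LSK, and 4.90% and 4.67% for DN2a against DN1. Both contrasts that compare 2 libraries with 2 hung on single libraries. DN2a against DN1 had 5 calls and from 1 (without DN1 replicate 1) to 13 (without DN2b replicate 1 or 2), with 10 without DN1 replicate 2, 9 without DN2a replicate 1, and 3 without LSK replicate 1, LSK replicate 2, DN2a replicate 2 or IgG replicate 3. DN2b against DN2a had 7 calls, with 14 without DN2b replicate 1, 3 without DN2b replicate 2 and 4 without DN2a replicate 2. Delta1 against IgG had 71 calls, with 46 without IgG replicate 1.

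**Figure D4:**
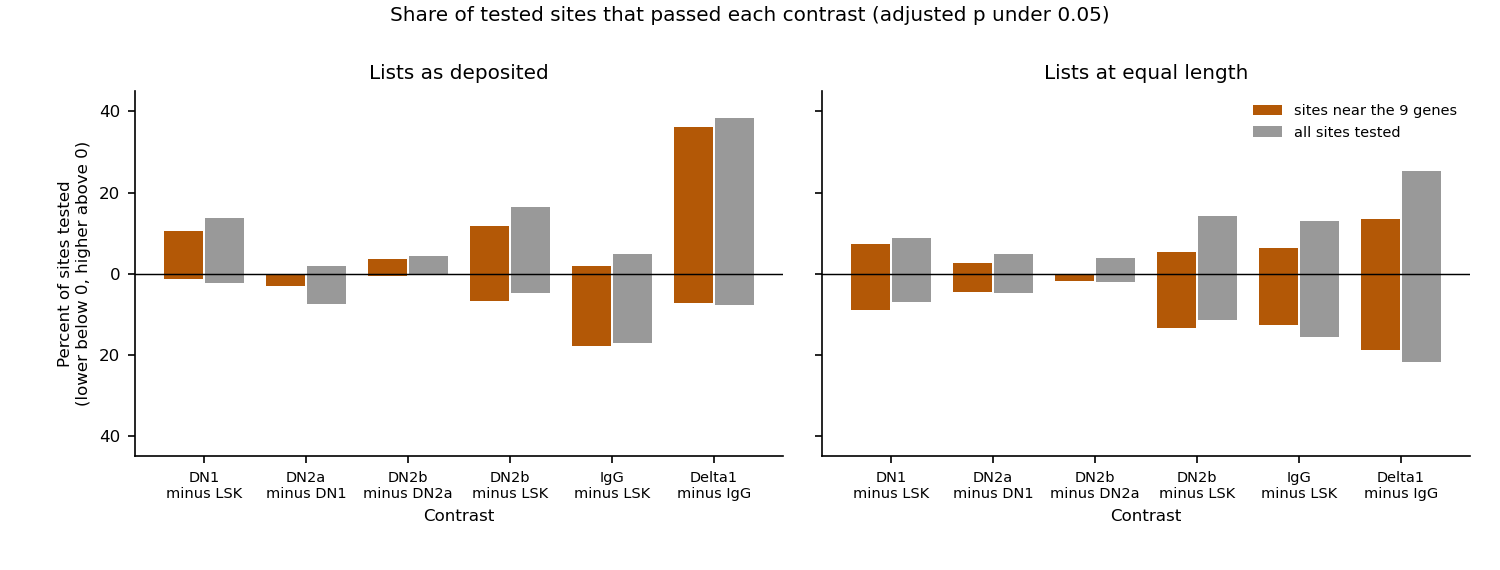
Percent of tested sites that passed each contrast, higher above 0 and lower below 0, for sites near the 9 genes (brown) and all sites (grey). On the left are the lists as deposited and on the right the lists at equal length. Higher sites outnumber lower ones in Delta1 against IgG on the left, and for the sites near the 9 genes lower ones outnumber higher ones on the right.

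Presence was also counted alone, with no use of the score. Of the 163 sites, 17 were open in all Delta1 libraries and no IgG library (10.3% of all sites did so) and 3 the other way (3.40%). In LSK and IgG, 16 were open in every LSK and no IgG library (11.7%) and 2 in every IgG and no LSK library (3.72%). In DN1 and LSK, 14 were open in every DN1 and no LSK library (11.6%) and 1 the other way (1.74%). In DN2b and LSK, the counts were 17 (13.5%) and 4 (4.06%). In DN1 and DN2a, 7 were open in DN1 only (9.39%) and 0 in DN2a only (1.93%), and in DN2b and DN2a, 7 in DN2b only (5.62%) and 1 in DN2a only (0.793%). Of the 208 sites, 35 (16.8%) were open in all 12 libraries, as were 7.68% of all DHSs. Of those 35, 23 were at the promoters of neighbouring genes.

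The share of each gene's DHSs that were open was compared as a measure of the whole locus. It differed among groups for Klf1, Hba-a1, Gp1ba, Nfe2 and Vwf, 5 of the 8 genes with at least 5 DHSs (53.7% of the 18016 genes tested did). In the Hba-a1 window LSK had 36.8% ± 5.26 of the sites open and IgG 21.1% ± 5.26 (SD, n = 3 each), while DN1 had 68.4% ± 7.44, DN2a 47.4% ± 7.44 and DN2b 57.9% ± 14.9 (n = 2 each), with a limma F test adjusted p of 0.00179. Among the 8 genes Nfe2 alone still passed at equal list length (adjusted p = 0.0451), with 78.9% ± 5.26 open in LSK and 56.1% ± 6.08 in IgG. The Nfe2 call was lost with the upper 50% of each list, with a 20 kb window, with no variance trend, and without LSK replicate 1, LSK replicate 3 or any 1 IgG library. The count of 5 was also 3 without LSK replicate 3, DN1 replicate 1 or IgG replicate 1, 2 without IgG replicate 3 and 1 without IgG replicate 2.

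Other genes of both lineages were read from lists of 30 each at their outermost annotated start. Among erythroid genes 16 of 30 promoters had a peak in at least 2 libraries and 5 of these passed the F test (all promoters: 48.9%). With lists of equal length 4 of the list passed, of which only Car2 was among the 5. The share of all promoters that passed at equal list length is not given here, for this list or the megakaryocyte list. In IgG against LSK 5 were lower (all promoters: 41.3%), and in DN2b against LSK 1 was lower (all promoters: 2.39%). Car2, a carbonic anhydrase of red cells and progenitors, ranked at 81.0, 78.5 and 82.3 in LSK, 75.8 and 58.6 in DN1, 27.9 and 39.98 in DN2a, and 42.7 and 47.0 in DN2b, with no peak in IgG. It was lower in DN2b than in LSK by 35.7 points (SE 8.34, limma adjusted p = 0.0241), and it also passed the F test at equal list length (adjusted p = 2.72e-05). Gfi1b, a transcriptional repressor that acts in both lineages, and Aqp1, a water channel, were lower in IgG than in LSK. The differences were 55.9 and 52.1 points (limma adjusted p = 0.00331 and 0.00992). The F tests of these genes did not pass at equal list length (adjusted p = 0.0625 and 0.136). The Aqp1 call was also lost without LSK replicate 2 or 3, DN2a replicate 1, either DN2b library or any 1 IgG library (adjusted p from 0.0501 to 0.141). The beta-globin genes Hbb-bt and Hbb-bs, the haem enzyme gene Alas2 and Slc4a1, the red cell anion exchanger, had no promoter peak in any library. Hbb-bt and Hbb-bs are related copies of each other, and how much of their sequence repeats was not measured.

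Among megakaryocyte genes 22 of 30 were tested and 11 passed the F test (all promoters: 48.9%). With lists of equal length 9 of the list passed, and 8 of these were among the 11. In IgG against LSK 6 were lower (all promoters: 41.3%) and 1 was higher (all promoters: 2.19% higher). In DN2b against LSK 2 were higher (all promoters: 5.25%) and 1 was lower (all promoters: 2.39%), and in DN1 against LSK 1 was higher (all promoters: 2.36%). Of the 2 higher in DN2b, Rab27b was higher by 26.3 points at its outermost start, and over every coding start it was lower by 34.5. Itgb3, which encodes the partner chain of CD41, did not follow Itga2b. It had no promoter peak in LSK or IgG and ranked at 67.7 and 65.9 in DN1, 68.5 and 50.6 in DN2a, and 85.9 and 94.6 in DN2b, so DN2b was higher than LSK by 90.2 points (SE 7.75, limma adjusted p = 6.12e-05). Plek, the platelet protein pleckstrin, followed the receptor genes, at 78.1, 82.7 and 80.9 in LSK and at 0 and 33.8 in DN2b, lower by 63.7 points (SE 10.2, adjusted p = 0.00268). IgG was lower than LSK by 80.6 points at this start (adjusted p = 0.000135), but at the highest peak over every coding start of Plek it was above LSK by 8.04 points. F2rl2, F2rl3 and Lat, which act in thrombin and receptor signalling, were lower in IgG than in LSK by 82.2, 92.6 and 78.3 points (adjusted p = 1.18e-05, 1.91e-05 and 3.05e-05). Lat also serves the T cell receptor. Serpine2, a protease inhibitor, was open at its outermost start in the IgG libraries only, at 50.7, 40.9 and 62.8. Over every coding start it had a peak in 11 libraries, and with the upper 50% of each list its call was lost (adjusted p = 0.640). Pf4, a platelet chemokine, was lower in IgG than in LSK by 68.1 points (SE 15.1, adjusted p = 0.00489), and its F test (adjusted p = 0.0199) did not pass without LSK replicate 1 or 3 (adjusted p = 0.0526 and 0.0522). P2rx1, Rab27b and Thbs1 also passed the F test (adjusted p = 0.00359, 0.0138 and 0.0238). At equal list length P2rx1 did not pass (adjusted p = 0.145) and Rab27b had no peak in any library, while Itgb3, Plek, F2rl2, F2rl3, Lat, Serpine2, Pf4 and Thbs1 passed (adjusted p from 7.53e-06 to 0.00319). The call was lost for Rab27b without DN2b replicate 2 (adjusted p = 0.0587) and for Thbs1 without DN2a replicate 2, IgG replicate 1 or IgG replicate 2 (adjusted p from 0.0580 to 0.0650).

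The start used matters for these lists. In the erythroid list 11 genes had no peak at the outermost start in any library, and 7 had none at any protein-coding start. In the megakaryocyte list the counts were 8 and 7, and Fli1 was open in all 12 libraries once every coding start was read.

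Promoters whose percentiles over the 12 libraries were most like those of the members were found by Pearson's r. For Gp1ba these were Shcbp1l and Tekt1 (r = 0.988 and 0.987), for Gp9 Fzd6 and Trim38 (r = 0.967 and 0.953), for Itga2b F2rl3 and Edn1 (r = 0.977 and 0.972), and for Epor Gpr135 (r = 0.986). Libraries of 1 group and lists of like length share these values, so r is a description.

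The labels were read against marker promoters. Of 9 early T cell genes, 1 to 2 were open in LSK libraries, 4 in DN1, 7 in DN2a, 8 to 9 in DN2b and 0 in IgG. Of 8 LSK genes, 5 were open in each LSK library, 4 to 5 in the DN libraries and 2 to 4 in IgG, with Ly6a, the gene of SCA1, open in none. Of 8 myeloid and mast cell genes, 1 to 2 were open in LSK, 2 to 3 in the DN libraries and 2 to 3 in IgG. Behind these counts stood different genes, with Itgam and Cpa3 in the DN libraries (and Cebpe in DN2b replicate 2), and Itgam with Mpo, Elane, Csf1r or Cebpe in IgG. Of 8 genes of mature red cells, 6 had no promoter peak in any library, and 1 to 2 were open in LSK and the DN libraries and 0 in IgG.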

How the data were processed

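The authors sequenced DNase I double-hit fragments, trimmed adapters, aligned the reads to mm10 with BWA 0.7.12 and ran hotspot2 (false discovery rate 0.05) to make 1 peak list for each library. Per the labels SAMtools 1.2 was also used. The deposited lists hold 150 bp peaks with a score, a whole number from 1 to 150 whose meaning is not given in the sources used here, so it served only to rank peaks within a library. Read depth is not given there either.

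Peaks on the autosomes and X were merged into DHSs where they overlapped by at least 1 bp. Genes were those of GENCODE M21 on GRCm38 (mm10). Percentiles at sites and promoters, and the percent of open DHSs at a locus with at least 5, were fitted with limma 3.58.1 (R 4.3.3) across all features with a peak in at least 2 libraries, with 1 mean for each of 5 groups and a variance trend. The F test and 6 contrasts were adjusted by Benjamini-Hochberg over all features. The fit was also run on simulated data, and the outcome is not given here. Named sites were the highest promoter DHS of each gene and up to 3 distal DHSs with the largest F among those that passed, or the highest-ranked one where none did; named list genes were up to 10 by F among those that passed. Genes, lists and rules were chosen with earlier results of these data known. Replicate numbers only name a library, and p-values measure the spread between libraries. Alternatives were equal list length, the upper 50% of each list, other merging, filters, windows, starts and variance models, and leaving out each library. Peak sequences were read from GRCm38.p6. Some genes that these rules name are not reported here.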

Additional observations from a re-analysis of the deposited data

How the results depend on the processing

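No paired analysis was possible because the labels carry no replicate number that ties libraries of different groups. At equal list length, 37 sites near the 9 genes passed the F test (49.07% of all sites did), with 8 called for DN2a against DN1, 2 for DN2b against DN2a, 21 for IgG against LSK and 36 for Delta1 against IgG, and 1 locus passed. With the upper 50% of each list, these 4 contrasts gave 8, 3, 19 and 46 calls, and 2 promoters passed. With no filter on rare sites, DN2a against DN1 gave 3 calls and DN2b against DN2a 4. With a 20 kb window, 31 sites passed the F test, the contrasts gave 12 (DN1 against LSK), 2 (DN2a against DN1), 2 (DN2b against DN2a), 17 (DN2b against LSK), 15 (IgG against LSK) and 32 (Delta1 against IgG), 30 sites split a pair of groups by presence (open throughout the one, absent from the other), and 3 loci passed. With a 100 kb window, which holds more sites, these values were 115, 33, 17, 17, 59, 61, 131, 106 and 8. The numbers of sites tested in these windows are not given here, so the counts cannot be set against the shares over all features. Leaving out 1 library gave 55 to 68 sites by the F test, 13 to 20 for DN1 against LSK, 1 to 13 for DN2a against DN1, 3 to 14 for DN2b against DN2a, 23 to 36 for DN2b against LSK, 24 to 34 for IgG against LSK, 46 to 85 for Delta1 against IgG, 54 to 71 sites that split a pair of groups by presence, 4 promoters each time and 1 to 6 loci. Where leaving out a library left 1 in a group, that library was assumed to vary like the others. With every coding start, the Plek promoter was 8.04 points higher in IgG than in LSK, and Rab27b was 34.5 points lower in DN2b than in LSK (a difference of -34.5), both reversed. Besides the windows, 42 other recomputed counts stayed within 1.5 times the reported one, and no site named by rule changed direction. The length of the lists limits what a missing peak can show, and the read depth is unknown; the cause of these shifts was not tested.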
